A study of Mus musculus with 20 samples.

Results

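The transcripts described here are 10 genes of bone marrow macrophages and of iron recycling: C1qa, C1qb, C1qc, Vcam1, Cd5l, Mrc1, Slc40a1, Hmox1, Cd163 and Axl. They were chosen by symbol, with earlier results of these data known but with no rule on measured values, and each symbol was matched to its Ensembl identifier in the gene count table. All 10 were found among the 37620 genes listed, and all 10 passed the filter on low counts in every comparison.

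Resident macrophages of the marrow sit at the centre of erythroblastic islands, engulf expelled nuclei and worn red cells, and break down the haem that these carry. Haem oxygenase frees the iron, ferroportin exports it from the cell, and the same macrophages make complement C1q, scavenger receptors and receptors that recognize dying cells. VCAM1 is shared with marrow stroma and endothelium, and ferroportin and haem oxygenase are also made by erythroid precursors and other marrow cells, so a level in whole marrow can come from several cell types.

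RNA was sequenced from bulk bone marrow of 20 mice in 4 groups of 5: vehicle U2AF1(WT), sudemycin U2AF1(WT), vehicle U2AF1(S34F) and sudemycin U2AF1(S34F). U2AF1 is the spliceosome protein that reads the end of the intron, S34F is a recurrent mutation of myeloid neoplasms, and sudemycin D6 is a compound that acts on the spliceosome protein SF3B1. The comparisons ask what the mutant transgene, the drug and both together do to these transcripts. In every group, lethally irradiated (C57BL/6 × 129S4Sv/Jae)F1 recipients of 6-12 weeks of age carried pooled marrow of 2-3 transgenic donors of 8-12 weeks.

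All donor marrow carried the rtTA activator, so that the U2AF1(WT) mice also expressed a transgene, and all mice ate doxycycline chow at 625 ppm for 7 days after at least 6 weeks of engraftment. During the last 5 of these days sudemycin D6 at 50 mg/kg/day or vehicle was infused through a jugular catheter for 4 h a day. Marrow RNA was prepared 18 h later. The transplant replaces blood-forming cells, while the stroma and endothelium of the marrow remain those of the recipient, and recipient macrophages that survive irradiation cannot be told apart from those of the donors. Because marrow of several donors was pooled before transplantation, the 5 mice of a group may share donors, and the p-values measure the spread between recipients.

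Each mouse gave 41145892 to 62138138 reads counted on genes. U2af1 itself lay at 34.5-38.2 CPM (counts scaled to a common library size after TMM) in vehicle U2AF1(WT) mice and at 47.0-54.9 CPM in vehicle U2AF1(S34F) mice. The sex-linked transcripts Xist and the Y-linked genes split completely between the genotypes, so that genotype and sex cannot be told apart in these mice. Of the 24 macrophage identity markers 23 passed the filter on low counts between the genotypes under vehicle. Adgre1 (F4/80) lay at 45.2-91.2 CPM and Csf1r at 146-427 CPM, while Folr2 was near the floor, with 0 to 11 counts per mouse. Timd4, a marker of long-lived resident macrophages, was low at 0.221-2.60 CPM. In bulk marrow, fewer macrophages and less RNA per macrophage cannot be told apart.

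Compared per length of exon, the 10 genes spanned a wide range of levels. Slc40a1 was the highest at 86.0 ± 12.2 CPM per kb (mean ± SD over 20 mice), followed by Hmox1 at 24.0 ± 5.67 and Vcam1 at 23.4 ± 6.59 CPM per kb. The C1q chains came next, with C1qb at 8.10 ± 2.75, C1qa at 6.71 ± 2.45 and C1qc at 4.16 ± 1.80 CPM per kb. Cd5l lay at 3.75 ± 2.22, Axl at 3.28 ± 1.11, Mrc1 at 2.87 ± 1.02 and Cd163 at 1.08 ± 0.529 CPM per kb. The intervals of mean ± SD overlapped between Hmox1 and Vcam1 and between the neighbours from C1qb to Mrc1. All genes were measured in the same 20 mice, and their levels were not compared within each mouse. Between mice, Cd5l varied most, from 2.37 to 17.5 CPM, and Slc40a1 least, from 234 to 378 CPM. The fewest counts behind any value were 115, for Cd5l in 1 mouse, and the most were 19453, for Slc40a1.

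**Figure D1:**
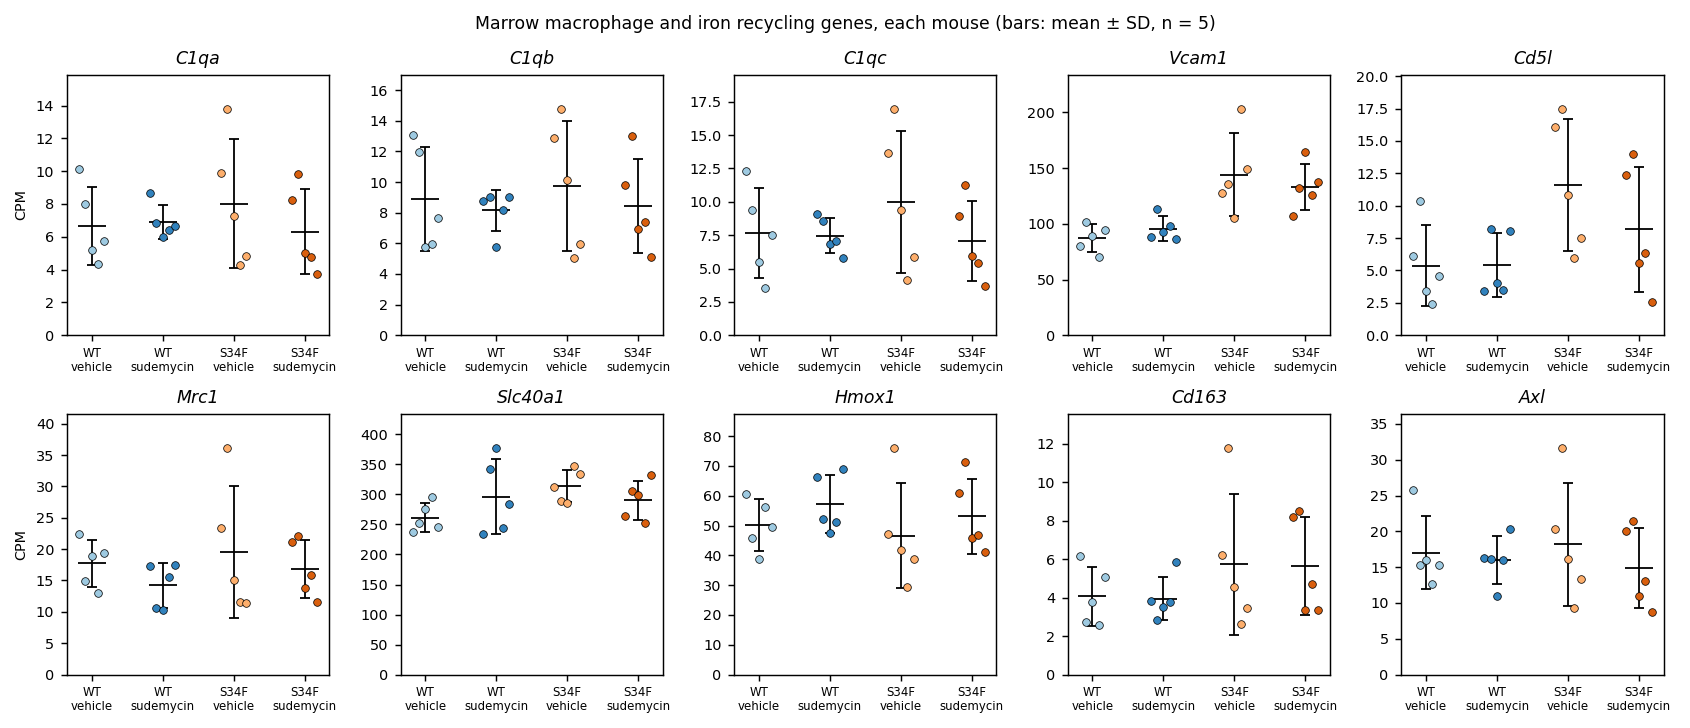
CPM (y axis, linear from 0) of each of the 10 genes in each mouse, by group (x axis), with the mean ± SD of 5 mice as bars. The vehicle U2AF1(S34F) mice all lie above the vehicle U2AF1(WT) mice for Vcam1, and the groups overlap for the other 9 genes, while 19.5% of all genes tested showed no overlap.

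Under vehicle, 3 of the 10 genes were higher in U2AF1(S34F) than in U2AF1(WT) marrow at an FDR of 10% in edgeR: Vcam1, Cd5l and Slc40a1. None was lower. Among all 14817 genes tested 39.5% passed in either direction, and 19.7% were higher, so that 3 of 10 is close to the background and nothing particular to these genes is read from the count. The median log2 fold change was 0.25 over the 10 genes and 0.00 over all genes.

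Vcam1 (ENSMUSG00000027962, mm9 chr3:115812938-115832606, minus strand) encodes the adhesion molecule that holds blood-forming cells through integrins. In vehicle U2AF1(WT) mice it lay at 79.9, 102, 89.4, 70.5 and 94.2 CPM, and in vehicle U2AF1(S34F) mice at 127, 136, 105, 203 and 149 CPM. All 5 mutant mice were above all 5 wild-type mice (groups did not overlap for 19.5% of all genes tested), with means of 87.2 ± 12.3 and 144 ± 36.8 CPM (SD, n=5). The log2 fold change was 0.71 ± 0.15 (SE; 95% CI 0.38 to 1.04) at FDR=0.00469. Without vehicle U2AF1(S34F) mouse 7, the highest of its group, the log2 fold change was 0.55 and the FDR 0.00552.

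Sudemycin U2AF1(WT) mice had Vcam1 at 87.8, 113, 92.6, 97.8 and 86.1 CPM, and sudemycin U2AF1(S34F) mice at 107, 132, 164, 126 and 137 CPM. Under the drug, 4 mutant mice were above all wild-type mice and 1 lay within their range. Vcam1 was the 1 gene of the 10 that passed between genotypes under sudemycin, where 36.8% of all genes passed and 17.2% were higher, with a log2 fold change of 0.44 ± 0.12 (95% CI 0.19 to 0.69) at FDR=0.0139.

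Against vehicle U2AF1(WT) mice, sudemycin U2AF1(S34F) mice again had higher Vcam1, by 0.60 ± 0.11 on the log2 scale (95% CI 0.35 to 0.84, FDR=0.00130), with no overlap of the groups, which held for 23.7% of all genes tested. It was 1 of 10 in a comparison in which 50.2% of all genes passed and 25.1% were higher. This comparison shares its control mice with the one under vehicle, and its fold changes are set beside those for description alone. Here B cell markers were lower in 10 of 10 (median log2 fold change -1.54), dendritic markers in 6 of 8 (1 higher), T and NK cell markers in 6 of 9 (2 higher), endothelial markers in 6 of 10 (median -0.43) and erythroid markers in 6 of 13, and neutrophil markers were higher in 6 of 14 and lower in 1. The summed level of the endothelial markers was 75.6-93.6 CPM in vehicle U2AF1(WT) and 58.6-73.3 CPM in sudemycin U2AF1(S34F) mice. The part of these shifts in the Vcam1 level was not tested. Vcam1 under vehicle passed in each of the 9 other settings and the 10 fits without 1 mouse, with a log2 fold change of 0.45 to 0.81.

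Cd5l (ENSMUSG00000015854, mm9 chr3:87161803-87174996, plus strand) encodes a secreted scavenger protein of tissue macrophages. It lay at 6.12, 10.4, 3.4, 2.37 and 4.59 CPM in vehicle U2AF1(WT) mice and at 16.1, 17.5, 10.8, 5.95 and 7.52 CPM in vehicle U2AF1(S34F) mice. The groups overlapped, with 3 mutant mice above every wild-type mouse and 2 within their range. The log2 fold change was 1.09 ± 0.42 (95% CI 0.15 to 2.02) at FDR=0.0761. The call was close to the threshold: it was lost without U2AF1(WT) mouse 1, 3, 4 or 5 or U2AF1(S34F) mouse 1, 3 or 5. In those fits the FDR was 0.106 to 0.154 and the log2 fold change 0.89 to 1.14. It was also lost without the filter on low counts (FDR=0.148) and with junction reads in place of gene counts (FDR=0.137). Under sudemycin Cd5l did not pass, with 8.17 ± 4.84 CPM in U2AF1(S34F) and 5.43 ± 2.46 CPM in U2AF1(WT) mice (log2 fold change 0.55, FDR=0.359).

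Slc40a1 (ENSMUSG00000025993, mm9 chr1:45964915-45982439, minus strand) encodes ferroportin, the iron exporter that hepcidin removes from the cell surface. Its transcript carries an iron-responsive element near the 5′ end, the hairpin through which iron regulatory proteins block translation, and it was the 1 gene of the 10 whose exons held the sequence pattern of such an element. The element lies in exon 1, at mm9 chr1:45982311-45982337 on the minus strand, and is printed to show the iron control of this transcript, with the loop of the hairpin in capitals.
Slc40a1 iron-responsive element: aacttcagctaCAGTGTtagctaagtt

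Slc40a1 lay at 237, 252, 276, 296 and 246 CPM in vehicle U2AF1(WT) mice and at 313, 289, 287, 347 and 334 CPM in vehicle U2AF1(S34F) mice. Of the mutant mice 3 were above every wild-type mouse and 2 fell just below the highest wild-type mouse. The log2 fold change was 0.25 ± 0.09 (95% CI 0.06 to 0.44) at FDR=0.0494. The call was lost without U2AF1(WT) mouse 1 or 5 or U2AF1(S34F) mouse 7 or 11 (FDR 0.101 to 0.124), in 1 model of all mice (log2 fold change 0.26, FDR=0.110), and with junction reads, where the log2 fold change was 0.08 (FDR=0.571). Under sudemycin the wild-type mice spread from 234 to 378 CPM and the mutant mice from 252 to 333 CPM, with a log2 fold change of -0.07 (FDR=0.763).

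The other 7 genes did not pass between the genotypes under vehicle. C1qa, C1qb and C1qc, the chains of the complement starter C1q, had log2 fold changes of 0.25 ± 0.33, 0.12 ± 0.34 and 0.37 ± 0.42. Mrc1, the mannose receptor, had 0.12, and Hmox1, the haem oxygenase that opens the haem ring, had -0.13. Cd163, the receptor for haemoglobin bound to haptoglobin, had 0.47 ± 0.40 (FDR=0.397), and Axl, a receptor tyrosine kinase for Gas6 on dying cells, had 0.08 (FDR=0.875). The 95% CI of each of these 7 genes spanned 0, and for all but Hmox1 it reached above the fitted 0.71 of Vcam1. Hmox1 crossed the threshold in the lower direction (-0.37, FDR=0.0852) once vehicle U2AF1(S34F) mouse 3, with 76.1 CPM the highest of all mice, was left out.

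**Figure D2:**
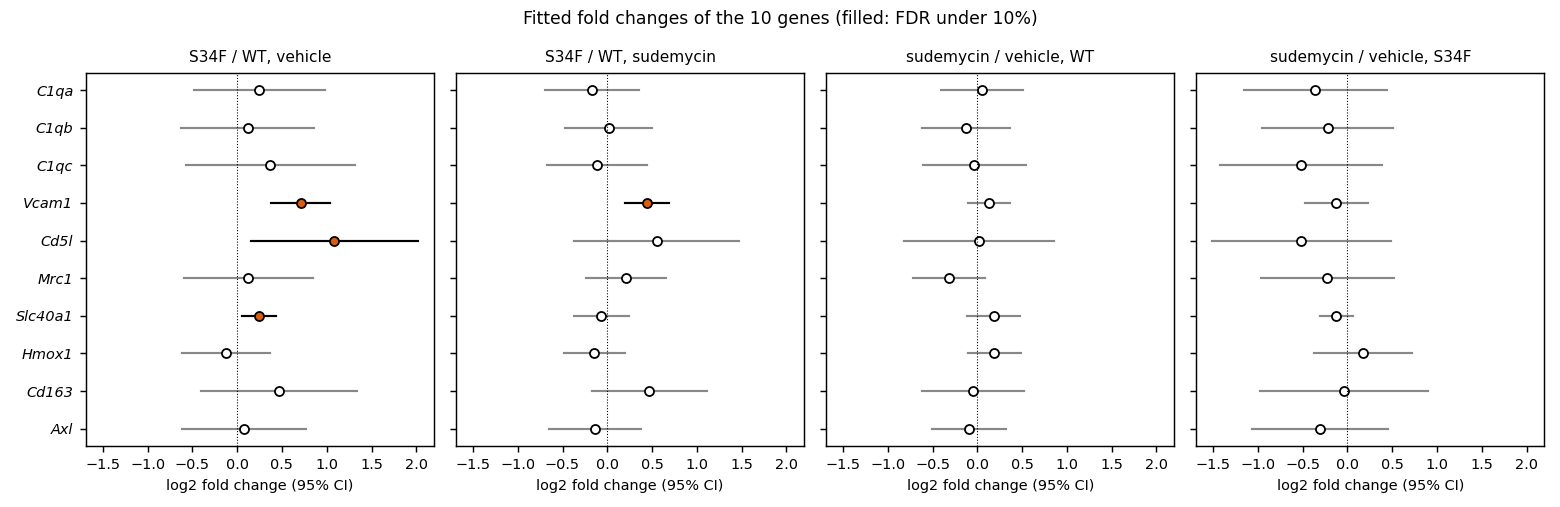
Fitted log2 fold change (x axis) of each of the 10 genes (y axis) with its 95% CI as a line, in the genotype comparisons under vehicle and sudemycin and the drug comparisons in each genotype, filled where the FDR is under 10%. Filled points are Vcam1, Cd5l and Slc40a1 under vehicle and Vcam1 under sudemycin, and no point of the drug comparisons is filled.

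Some marker lists differed in summed level between the genotypes under vehicle, where 39.5% of all genes passed in either direction and 19.7% were higher. The summed level of 14 neutrophil markers was 66877-73880 CPM in vehicle U2AF1(WT) mice and 86091-144783 CPM in vehicle U2AF1(S34F) mice. Of the 14 markers 6 were called higher and 0 lower, with a median log2 fold change of 0.29. The summed level of the 24 macrophage identity markers ran the other way, from 2081-2327 CPM to 1354-1864 CPM. This sum rests mostly on abundant genes such as Mpeg1 (mean 891 in wild-type and 634 CPM in mutant mice) and Csf1r (349 and 195 CPM). Scarcer markers went either way, with Fcna at 4.35 and 6.67 CPM and Siglec1 at 5.13 and 3.93 CPM. Of 23 tested macrophage identity markers 8 were called lower and 1 higher. This is near the share of all genes, and nothing particular to the list is read from it. Stromal and endothelial markers overlapped between the same groups, at 144-215 and 155-254 CPM and at 75.6-93.6 and 64.2-98.8 CPM. No marker of these 4 lists was at or under 3 counts in all mice. The part of these shifts in the levels of Vcam1, Cd5l and Slc40a1 was not tested.

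Sudemycin D6 changed none of the 10 transcripts at the threshold. In U2AF1(WT) mice the log2 fold changes ran from -0.32 for Mrc1 to 0.19 for Hmox1, with a smallest FDR of 0.496, where 3.07% of all genes passed. In U2AF1(S34F) mice they ran from -0.52 for C1qc to 0.17 for Hmox1, with a smallest FDR of 0.437, where 10.8% of all genes passed. Over both genotypes 15% of all genes passed, and the 10 genes ran from -0.27 for C1qc to 0.19 for Hmox1, with a median of -0.15 against 0.01 over all genes. In each of these edgeR comparisons 0 of 10 had an unadjusted p under 0.05, and DESeq2 called 0 of 10.

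For Vcam1 the interval of the drug effect over both genotypes was narrow, from -0.20 to 0.23 on the log2 scale around 0.02. For the sparser transcripts the intervals were wide: Cd5l in U2AF1(S34F) mice lay at 11.6 ± 5.10 CPM under vehicle and 8.17 ± 4.84 CPM under sudemycin. The interaction of drug and genotype was called for 0 of 10 genes, with a smallest FDR of 0.712 (Slc40a1, -0.32), 0 unadjusted p under 0.05 and 0 calls by DESeq2. Among all genes 0.013% passed this test. The Vcam1 interaction was -0.28 (95% CI -0.70 to 0.15), an interval that holds both 0 and a smaller genotype difference under the drug.

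Between mice of the same group, 8 of the genes rose and fell together. The 8 are the 3 C1q chains, Cd5l, Mrc1, Hmox1, Cd163 and Axl, a grouping made after the values were seen. After subtraction of each group mean from log2 CPM, their 28 pairs had a Pearson r between 0.56 and 0.96 over 20 mice (median 0.81), with Spearman's rho between 0.57 and 0.96. Among the closest pairs were C1qa with C1qc (r=0.96), C1qa with C1qb (r=0.95) and Mrc1 with Cd163 (r=0.93). All values of a mouse share 1 library, and without vehicle U2AF1(S34F) mice 3 and 7 the r of the 28 pairs was 0.49 to 0.95 (median 0.75, 18 mice). The mean of the 8 had a median r of -0.04 with all other genes above 1 CPM.

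Vcam1 and Slc40a1 did not follow the 8. The r of Vcam1 with each of them was between -0.52 and -0.13 (median -0.36), and that of Slc40a1 between -0.60 and -0.22 (median -0.44). Between Vcam1 and Slc40a1 r was 0.33.

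The spread of the 8 was widest among vehicle U2AF1(S34F) mice. Their geometric mean level was 22.4 CPM in mouse 3 and 6.82 CPM in mouse 7 of that group. Vehicle U2AF1(WT) mice ran from 6.97 CPM in mouse 4 to 14.7 CPM in mouse 1, and sudemycin U2AF1(S34F) mice from 6.36 CPM in mouse 12 to 16.6 CPM in mouse 6. Sudemycin U2AF1(WT) mice lay closest together, from 8.12 to 11.9 CPM. The mouse with the lowest level of the 8 among vehicle U2AF1(S34F) mice, mouse 7, had the highest Vcam1 of all mice, 203 CPM.

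**Figure D3:**
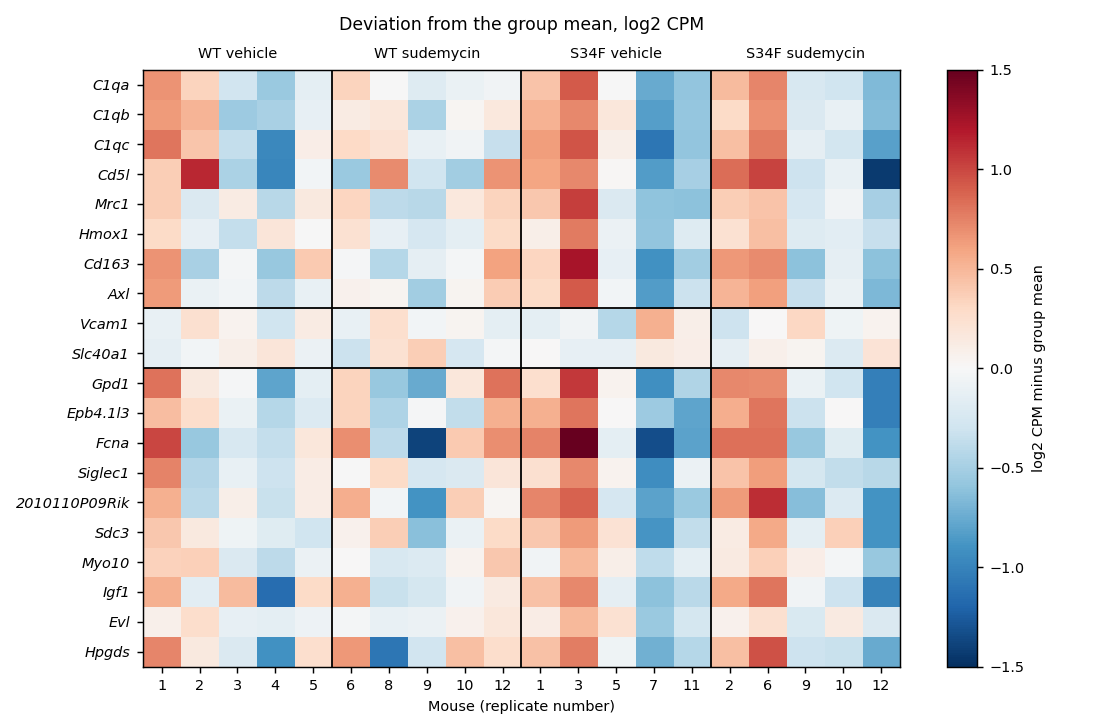
Deviation of log2 CPM from the group mean (colour) for the 10 genes and the 10 other genes most like the mean of the 8 (rows), in each mouse (columns, by group). The upper block and the lower block share their warm and cool columns, with vehicle U2AF1(S34F) mouse 3 warm and mouse 7 cool, while Vcam1 and Slc40a1 in the middle do not.

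C1q shows this shared movement most closely. C1qa (ENSMUSG00000036887, chr4:136451832-136454718), C1qc (ENSMUSG00000036896, chr4:136445719-136448980) and C1qb (ENSMUSG00000036905, chr4:136436044-136442102) lie next to each other on the minus strand of mm9 chromosome 4. C1qa lay at 10.1, 8.0, 5.19, 4.32 and 5.73 CPM in vehicle U2AF1(WT) mice 1 to 5, where C1qc lay at 12.3, 9.36, 5.48, 3.57 and 7.5 CPM. C1qb lay at 13.1, 11.9, 5.76, 5.99 and 7.68 CPM in the same mice. The order of the mice was nearly the same for the 3 chains, with mouse 1 highest and mouse 2 next.

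The same held in vehicle U2AF1(S34F) mice 1, 3, 5, 7 and 11, with C1qa at 9.86, 13.8, 7.27, 4.30 and 4.84 CPM and C1qc at 13.6, 17.0, 9.36, 4.14 and 5.83 CPM. Mouse 3 was the highest and mouse 7 the lowest for both. Promoter sequences of RefSeq (GRCm38.p6, 250 bases before to 50 after the gene's start) were matched for C1qb, C1qc, Cd5l, Mrc1, Cd163 and Axl. The core GAGGAA of the macrophage factor PU.1, on either strand, was found in 5 of these 6, and in 28.3% of 32851 mouse promoters of that length. The core TGCTGAC of the Maf recognition element was in 0 of the 6, and in 4.67% of all promoters. No promoter was matched for C1qa, Vcam1, Slc40a1 and Hmox1, and a part of PU.1 in the shared movement was not tested. The promoters of C1qb and C1qc are printed because these chains moved together, with the PU.1 core, or its reverse complement, in capitals.
C1qb promoter, GRCm38.p6 chr4:136886151-136886450, minus strand: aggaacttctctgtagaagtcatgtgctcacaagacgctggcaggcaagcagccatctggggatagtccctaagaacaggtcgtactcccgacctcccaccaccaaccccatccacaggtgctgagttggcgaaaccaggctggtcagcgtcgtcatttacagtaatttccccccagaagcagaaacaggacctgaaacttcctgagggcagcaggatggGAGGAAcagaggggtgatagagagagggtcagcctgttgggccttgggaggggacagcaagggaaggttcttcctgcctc
C1qc promoter, GRCm38.p6 chr4:136892865-136893164, minus strand: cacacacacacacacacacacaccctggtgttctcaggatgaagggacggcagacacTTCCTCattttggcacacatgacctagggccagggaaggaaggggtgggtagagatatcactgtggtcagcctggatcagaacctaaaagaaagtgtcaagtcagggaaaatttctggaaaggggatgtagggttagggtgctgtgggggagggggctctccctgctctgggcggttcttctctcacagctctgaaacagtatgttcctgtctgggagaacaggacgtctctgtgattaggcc

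Mrc1 (ENSMUSG00000026712, chr2:14151041-14253684, plus strand) lay at 23.4, 36.1, 15.1, 11.5 and 11.5 CPM in vehicle U2AF1(S34F) mice, in the mouse order given above. Cd163 (ENSMUSG00000008845, chr6:124254669-124280545, plus strand) lay at 6.19, 11.8, 4.54, 2.62 and 3.45 CPM in the same mice. Mouse 3 was again the highest for both genes. Hmox1 (ENSMUSG00000005413, chr8:77617490-77624495, plus strand) ran from 29.4 CPM in mouse 7 to 76.1 CPM in mouse 3, and Axl (ENSMUSG00000002602, chr7:26542292-26573724, minus strand) from 9.34 CPM to 31.7 CPM in the same 2 mice.

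The genes outside the 10 that were most like the mean of the 8, among 12216 others with a mean of at least 1 CPM, were Gpd1 (r=0.91), Epb4.1l3 (0.90), Fcna (0.88), Siglec1 (0.87), 2010110P09Rik (0.87) and Sdc3 (0.86), followed by Myo10, Igf1, Evl and Hpgds (down to 0.83). These are correlations over 20 mice. For single genes, Fcna was the most like Mrc1 (r=0.94), Axl (r=0.93), Cd163 (r=0.88) and Hmox1 (r=0.87). Epb4.1l3 was the most like C1qa (r=0.89), Sdc3 the most like C1qb (r=0.88), Eya1 the most like C1qc (r=0.83) and Myo10 the most like Cd5l (r=0.78). The genes most like Slc40a1 included Arl2bp (r=0.96) and Mkrn1 (r=0.94), and those most like Vcam1 were 1810011H11Rik (r=0.85), Ndrg2 (r=0.84) and Zbtb38 (r=0.83).

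Among the lists of marker genes, the mean of the macrophage identity markers and that of the macrophage regulators each had r=0.80 with the mean of the 8, and the neutrophil markers had r=-0.63. Other lists were also positive, with r=0.62 for apoptotic cell clearance, 0.58 for dendritic, 0.58 for T and NK cell and 0.55 for monocyte markers. For Slc40a1 the neutrophil markers had r=0.76 and the erythroid markers r=-0.70. The negative r was not particular to erythroid markers, with -0.75 for T and NK cell, -0.73 for dendritic and -0.69 for endothelial markers and -0.72 for macrophage regulators. For Vcam1 the neutrophil markers had r=0.59, the endothelial markers r=-0.19 and the stromal markers r=-0.09.

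**Figure D4:**
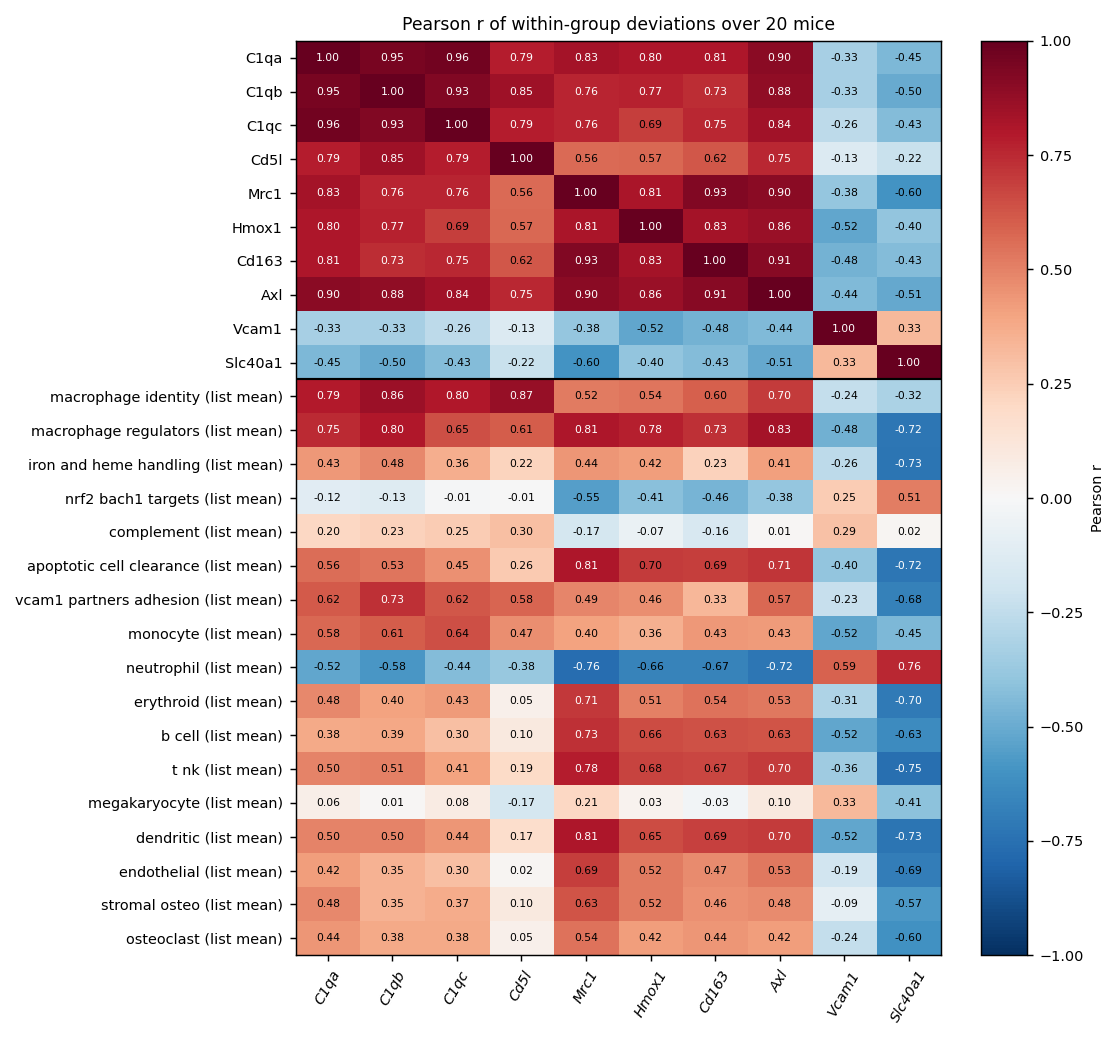
Pearson r of within-group deviations of log2 CPM over 20 mice (colour and printed value), between the 10 genes (columns) and the same genes and the means of 17 gene lists (rows). The 8 genes form a block of r between 0.56 and 0.96, and Vcam1 and Slc40a1 have negative r with each of them.

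The gene lists of macrophages and of the pathways around the 10 genes are counted next, against the 39.5% of all genes called under vehicle in either direction. Shares near it, or resting on few genes, show nothing particular to a list. Of 23 tested macrophage identity markers 8 fell and 1 rose in U2AF1(S34F) mice under vehicle (median log2 fold change -0.22). The lipid carrier Apoe (-1.28), the endotoxin co-receptor Cd14 (-1.0) and the growth factor receptor Csf1r (-0.85) fell, and Gpnmb rose by 1.97 (4.42 ± 1.67 to 17.6 ± 5.28 CPM, n=5). Of 12 regulators 4 fell, among them Pparg (-0.76) and Zeb2 (-0.65), and 2 rose. Spic, the factor that red pulp and marrow macrophages need for iron recycling, was 1 of the 2, at 0.68 (FDR=0.0685). Bach1, the haem-sensing repressor of Hmox1 and Slc40a1, fell by 0.21 (FDR=0.0546), and Nfe2l2, the activator that competes with it, had 0.01.

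Among 28 tested genes of iron and haem handling 7 fell and 5 rose under vehicle. The ferritin heavy chain Fth1 fell by 0.95 on the log2 scale, from 538 ± 77.6 to 282 ± 17.2 CPM (n=5), and the ferritin light chain Ftl1 had -0.15 without passing. The haemopexin receptor Lrp1 had -1.40 and Hfe -0.71, both called, and the biliverdin reductase Blvrb rose by 0.91. Hp, the haptoglobin that Cd163 binds, had -0.11 without passing, and Hamp, which encodes hepcidin, was too low to be tested. Of 12 targets of Nfe2l2 and Bach1 3 fell (Slc7a11 -1.15, Osgin1 -1.01, Sqstm1 -0.30) and 1 rose (Gsr, 0.29).

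Of 18 complement genes 3 fell, among them C5ar1 (-0.65) and C3ar1 (-0.50), and 2 rose, C4b by 0.58 among them. The proteases that join C1q in the C1 complex did not pass, with C1ra at 0.21 and C1s at 0.34. Of 18 genes of apoptotic cell clearance 6 fell, among them Thbs1 (-2.09), Itgb5 (-0.47) and Stab1 (-0.44), and 2 rose, among them the bridging protein Mfge8 (0.53). The Axl ligand Gas6 (-0.05), Pros1 (-0.07), and the Axl relatives Mertk (0.37) and Tyro3 (-0.56) did not pass. Of 10 tested partners of Vcam1 and adhesion genes 4 fell and none rose: Selp (-0.84) and the integrin chains Itgb7 (-0.60), Itga4 (-0.22, FDR=0.0878) and Itgb1 (-0.22, FDR=0.0719).

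The remaining marker lists were counted in the same comparison. Monocyte markers had 3 of 10 lower and 1 higher, T and NK cell markers 1 of 9 lower and 3 higher, megakaryocyte markers 2 of 8 lower and 1 higher, and stromal and bone markers 2 of 11 in each direction. Endothelial markers had 2 of 10 lower, erythroid and dendritic markers 1 lower each of 13 and 8, and osteoclast markers 1 of 5 higher. Of 10 B cell markers edgeR called 0, with 0 unadjusted p under 0.05 and 1 call by DESeq2, and their median log2 fold change was -0.97.

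Between the genotypes under sudemycin, where Vcam1 alone of the 10 and 36.8% of all genes passed, 5 of 22 tested identity markers were higher and 4 lower, and 5 of 28 iron genes were higher and 3 lower. Fth1 fell again, by 0.50 (FDR=0.00276), while Spic had 0.24 and did not pass (FDR=0.576). Of the neutrophil markers 3 of 14 were higher, with summed levels of 61078-104091 CPM in U2AF1(WT) and 76665-125667 CPM in U2AF1(S34F) mice. B cell markers were lower in 6 of 10 (median -1.04), erythroid markers in 5 of 13 with 1 higher (-0.44), T and NK cell markers in 4 of 9 (-0.30), megakaryocyte markers in 3 of 8 (-0.54) and endothelial markers in 1 of 10 (-0.30). The part of these shifts in the Vcam1 level was not tested.

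Under sudemycin over both genotypes, where none of the 10 genes and 15% of all genes passed, single genes of the same pathways did. Of the identity markers 3 rose (Fcgr1 0.77 and Trem2 0.59 among them) and 2 fell, Vsig4 by 0.98 and Ms4a7 by 0.63. Vsig4 was near the floor, at 0.020-0.564 CPM (1 to 31 counts) over all mice. Its median under vehicle and sudemycin was 0.094 and 0.088 CPM in U2AF1(WT) mice, and 0.355 and 0.115 CPM in U2AF1(S34F) mice. Of the iron genes 5 rose, among them the phagosomal iron transporter Slc11a1 (0.47, FDR=0.000147), Hfe (0.40) and Hp (0.23, FDR=0.0829), and 2 fell, the transferrin receptor Tfr2 by 0.79 and Blvrb by 0.32. Slc7a11 fell by 1.06 while G6pdx (0.36) and Txnrd1 (0.16) rose. In the complement list 3 rose, among them C4b (0.76) and C5ar1 (0.27), and C1ra fell by 0.43.

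In the clearance list Pros1 rose by 0.65 (FDR=0.00293) and Thbs1 fell by 1.76. Among the Vcam1 partners Itga4 rose by 0.18, Icam1 by 0.28 and Maea, which encodes the erythroblast macrophage protein, by 0.18, and Sele fell by 1.19. Of the cell type lists, megakaryocyte markers had 5 of 8 lower, dendritic markers 3 of 8 lower and 1 higher, B cell markers 2 of 10 lower, monocyte markers 1 of 10 lower, T and NK cell markers 1 of 9 lower, and neutrophil markers 1 of 14 higher. None was called among 12 regulators, 13 erythroid, 10 endothelial, 11 stromal and 5 osteoclast markers, where 0 or 1 of each list had an unadjusted p under 0.05 in edgeR and DESeq2 called 0. In U2AF1(S34F) mice alone 10.8% of all genes passed with the drug. There 3 of 9 T and NK cell, 3 of 8 megakaryocyte, 2 of 13 erythroid and 1 of 10 endothelial markers were lower. Of 23 identity markers 4 were higher and 2 lower, and 1 of 5 osteoclast markers was higher. Counts on so few genes show nothing particular to a list.

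Splicing within the 10 genes was read from junction reads, because both the mutation and the drug act on the spliceosome. Only cassette exons and choices between splice acceptors were examined, and not retained introns or choices between donors. In vehicle-treated mice 15 cassette exon events had enough reads to be tested between the genotypes, and 13 choices between splice acceptors. They lay in 6 and 4 of the 10 genes. C1qa, C1qc, Cd5l and Hmox1 had no tested event in any comparison, so nothing is known here of their splicing. None was called at an FDR of 10% and a change above 1%, where 3.41% of all cassette events and 3.05% of all acceptor choices were called in edgeR. Unadjusted p-values under 0.05 were found for 1 cassette event and 2 acceptor choices, and limma called 0. Between the genotypes under sudemycin 3.07% and 2.83% of all cassette events and acceptor choices were called, and 0 of 11 and 0 of 12 in the 10 genes. With the drug the shares were 1.26% and 0.752% in U2AF1(WT) and 1.38% and 0.866% in U2AF1(S34F) mice, and for both changes together 4.78% and 5.45%. Of the 10 to 15 events of each kind tested for each of these, in 4 to 6 of the 10 genes, 0 were called. At most 1 of each kind had an unadjusted p under 0.05, and limma called 0.

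In Vcam1 the transcript has 2 annotated ends. The short form ends in an alternative last exon of 1519 bases (mm9 chr3:115825193-115826711), which follows the shared exon at chr3:115827301-115827567, and is known in mice as a form held to the membrane by a lipid anchor. The acceptors of the competing exons are printed with position -3 in capitals, counted back from the first base of the exon. This is the base at which U2AF1(S34F) is known to prefer C over T, and both acceptors carry C.
Vcam1 full-length exon, mm9 chr3:115823989-115824011, minus strand: ctccttttcttctcctcCagaga
Vcam1 short-form exon, mm9 chr3:115826709-115826731, minus strand: attttctatccattttaCagatg

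The share of the short form was taken of the junction reads from the shared exon to either of the competing exons. It was 6.39%, 10.4%, 10.4%, 10.4% and 6.99% in vehicle U2AF1(WT) mice and 12%, 14.6%, 13.1%, 15.3% and 11.3% in vehicle U2AF1(S34F) mice. All 5 mutant mice were above all 5 wild-type mice, with means of 13.3% ± 1.70 and 8.92% ± 2.05 (SD, n=5). Of 31257 acceptor choices with reads in all 10 mice, 3.25% did not overlap between these groups. The difference of 4.36 percentage points, tested on the share of all the donor's reads, was not called (FDR=0.296, between 0.227 and 0.673 over the other settings). Under sudemycin the shares were 8.93% ± 2.86 in U2AF1(WT) and 9.78% ± 2.20 in U2AF1(S34F) mice, and the drug difference in U2AF1(S34F) mice was -3.50 points (FDR=0.508).

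In Axl an exon of 27 bases (mm9 chr7:26558118-26558144) had an inclusion of 82.6% ± 15.4 in vehicle and 92.0% ± 8.31 in sudemycin U2AF1(WT) mice, and of 79.9% ± 5.75 and 90.1% ± 10.1 in U2AF1(S34F) mice. The groups overlapped, the difference of 10.2 points with the drug in U2AF1(S34F) mice had FDR=0.643, and 9.5 to 76.5 reads per mouse stood behind each share. A further cassette event of this exon, with other flanking splice sites, went the other way there (change in share -0.053, FDR=0.941). With the drug in U2AF1(WT) mice that event went the same way (0.073, FDR=0.653). In Slc40a1 an exon of 67 bases that the annotation does not hold (chr1:45975949-45976015) was set against the annotated exon it competes with. Of the reads of both junctions it took 5.03% ± 1.12 in vehicle U2AF1(WT) mice and 3.46% ± 1.25 in vehicle U2AF1(S34F) mice. Under sudemycin it took 3.96% ± 1.67 and 3.60% ± 0.258. The vehicle difference, tested on the share of all the donor's reads, was -1.59 points (FDR=0.432). The smallest FDR of any event in the 10 genes was 0.173, for the Axl exon at chr7:26559103-26559242 between vehicle U2AF1(WT) and sudemycin U2AF1(S34F) mice.

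The acceptors of these exons and of those they compete with are printed with the last 20 bases of the intron and the first 3 of the exon, position -3 in capitals, and each carries C.
Axl exon of 27 bases, mm9 chr7:26558142-26558164, minus strand: tctgtcctttctcctcaCagggc
Axl next exon, mm9 chr7:26555782-26555804, minus strand: tcccccataccctctgaCagtga
Slc40a1 unannotated exon, mm9 chr1:45976013-45976035, minus strand: gaatgttgtgttgtttgCagatt
Slc40a1 annotated exon, mm9 chr1:45975843-45975865, minus strand: tgtgcttttgtcccgtaCagtgg

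**Figure D5:**
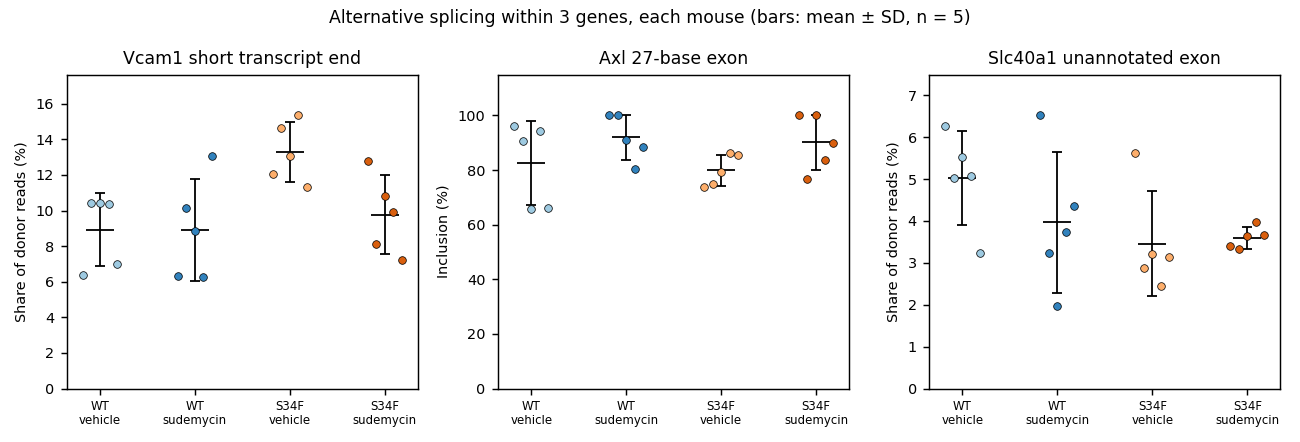
Share of junction reads in % (y axis, from 0) for the short end of Vcam1, the 27-base exon of Axl and the unannotated exon of Slc40a1 in each mouse, by group (x axis), with the mean ± SD of 5 mice as bars. The 5 vehicle U2AF1(S34F) mice lie at 11.3% to 15.3% for Vcam1, above the 5 vehicle U2AF1(WT) mice at 6.39% to 10.4%. This difference was not called (FDR=0.296), and 3.25% of all acceptor choices with reads in these mice showed no overlap.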

How the data were processed

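Bulk bone marrow RNA of 20 mice was depleted of ribosomal RNA and sequenced as stranded libraries, and the authors aligned the reads with TopHat2 2.0.8 to mm9. The authors deposited counts of reads on 37620 genes and 554616 splice junctions, as whole numbers without normalization. The program that counted reads on genes is not given in the sources used here. The 10 genes and the gene lists were chosen with earlier results of these data known.

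The quasi-likelihood F-test of edgeR 4.0.16 (R 4.3.3) was applied to the gene counts after filterByExpr and TMM scaling, with robust fitting and a prior count of 2. The p-values were adjusted over all genes tested (Benjamini-Hochberg) and called at FDR<10%. Each pair of groups was fitted on its own 10 mice. The drug over both genotypes and the interaction were fitted on all 20. CPM were scaled by TMM over all mice.

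Cassette exon events came from junctions with both ends annotated and acceptor choices from junctions with an annotated donor, and those averaging 10 or more reads a mouse were tested. The counts were tested in edgeR with 1 coefficient per mouse and dispersion 0, a choice taken over from earlier work on these data, and called at FDR<10% and a change above 1%. Acceptor choices were added after the junctions were seen. Alternatives were DESeq2 1.42.0, its size factors, other filters, autosomal genes, FDR 5%, junction reads per gene, 1 model of all mice, a replicate block, limma 3.58.1 on shares, at least 20 reads, and leaving out each mouse.

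Named genes were all 10, up to 4 called genes of each list with the largest change, their known partners, ligands and regulators, and the genes most like them by r. The values of a few genes that this rule names are not reported here. Of 245 symbols listed 244 matched. Replicate numbers did not pair the mice. The gene and event fits were tested on simulated data.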

Additional observations from a re-analysis of the deposited data

Results flagged for a closer look

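A single mouse stood apart from the other 4 of its group in 3 of 52 groups of values examined by Dixon's test, where chance gives about 1 in 20. C1qb was lowest in sudemycin U2AF1(WT) mouse 9, at 5.77 CPM with the nearest mouse at 8.19 CPM. Axl was highest in vehicle U2AF1(WT) mouse 1, at 25.8 CPM with the nearest mouse at 16.01 CPM. The share of the unannotated Slc40a1 exon was highest in vehicle U2AF1(S34F) mouse 1, at 5.62% with the nearest mouse at 3.20%.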

How the results depend on the processing

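Of the 10 genes, 3 were called between the genotypes under vehicle and 1 under sudemycin, against 1 and 2 with junction reads per gene. The gene that junction reads added under sudemycin was C1qa (-0.60, FDR=0.0845). Without 1 mouse the count under vehicle was 1 to 3. Of 1646 single values 117 changed sign, none of them past the threshold. Among all genes, the drug called 453 in U2AF1(WT) mice, against 844 by DESeq2, 243 at FDR 5%, 146 by junction reads, 1072 in 1 model of all mice and 191 to 730 without 1 mouse. In U2AF1(S34F) mice it called 1588, against 826 at FDR 5%, 908 by junction reads, 788 in 1 model and 913 to 1736 without 1 mouse. Over both genotypes it called 2309, against 1513 at FDR 5% and 1266 by junction reads. The interaction called 2 genes, with 1144 at an unadjusted p under 0.05, against 116 by DESeq2, 10 without a filter, 8 with the CPM filter, 1 among autosomal genes and 2 to 87 without 1 mouse. The cause of these shifts was not tested.

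The replicate numbers shared by the groups were not found to pair the mice: the deviations of same-numbered mice had r between -0.18 and 0.37, and 2 of 7 correlated best with their own number. With the replicate number as a block under vehicle, Vcam1 had 0.45 (FDR=0.0198), Cd5l 1.62 (FDR=0.00229) and Slc40a1, no longer called, 0.20 (FDR=0.204). No paired analysis was possible for the drug and combined comparisons because the groups share fewer than 2 numbers. The Axl share rests on few reads, 9.5 to 76.5 per mouse. For Cd5l, with at least 115 counts per mouse, the CV between mice of a group was 44.1% to 59.2%.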
